A study of Mus musculus with 16 samples.

Results

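Cyclin-dependent kinase inhibitors were followed as 6 genes (Cdkn1a, Cdkn1b, Cdkn2a, Cdkn2b, Cdkn2c and Cdkn2d) out of 53379 counted genes. They were picked by name, through the mouse symbol of each Ensembl identifier, and no measured value entered the choice. The libraries came from sparse green cells of the neocortex of mice at postnatal day 4 (strain CD1 in the labels, a mixed background of C57BL/6 and CD1 in the study's methods), labeled by mosaic analysis with double markers (MADM), in which recombination between homologous chromosomes ties the color of a cell to its genotype. All animals carried MADM7-GT/TG, Emx1-cre and XGFAP-lacZ, and the mosaic animals also carried Eed on the MADM chromosome. Sorted cells that stained for lacZ were labelled astrocytes and those that did not were labelled neurons, which gave 4 groups: astro wt (Eed+/+, n = 5), astro mosaic (Eed-/-, n = 5), neuro wt (Eed+/+, n = 2) and neuro mosaic (Eed-/-, n = 3). EED belongs to the Polycomb complex PRC2, which methylates histone H3, and the comparisons asked what its loss did in each cell type. As a model, the groups share several limits: Emx1-Cre is active in the lineage of the dorsal forebrain, lacZ stands under the human GFAP promoter, green cells of both genotypes hold 2 paternal copies of chromosome 7, and the tissue around Eed-/- cells is heterozygous. The samples of a group came from individual animals. Whether an astrocyte and a neuron library could share an animal is not given, and tests over both cell types took all libraries as independent.

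The members bind cyclin-dependent kinases (CDKs) or their cyclin complexes and slow passage from G1 into S phase. Those of the Cip/Kip family (Cdkn1a and Cdkn1b among them) act on several cyclin-CDK complexes, whereas those of the INK4 family (Cdkn2a, Cdkn2b, Cdkn2c and Cdkn2d) bind CDK4 and CDK6 and so keep retinoblastoma proteins active. The Cdkn2a and Cdkn2b genes are textbook targets of Polycomb repression, and Cdkn1a is a textbook target of p53.

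The 15 labelled libraries held between 211736 and 3178529 gene reads (reads assigned to genes). Alignment limits (at least 1000000 unique reads, making at least 60% of all reads) were met by 10 of them: 4 astro wt, 2 astro mosaic, 1 neuro wt and 3 neuro mosaic. The 5 outside were astro mosaic replicates 1, 3 and 4, astro wt replicate 3 and neuro wt replicate 2, so the genotype results of the members and of the gene lists are given with and without these. Summed microglia and erythroid markers reached 8634 and 8024 CPM (counts per 1000000 gene reads, scaled by TMM) in astro mosaic libraries, and were both 0 in replicates 2 and 5, which lay within the limits. Astrocyte markers summed to between 5510 and 46160 in astro wt, 4398 and 52776 in astro mosaic, 9589 and 10460 in neuro wt and 8598 and 15123 in neuro mosaic libraries. Neuron markers summed to between 307 and 3922, 3.42 and 2977, 1353 and 1943, and 1709 and 2969 in the same order, so every library labelled neurons held more astrocyte than neuron marker signal. Within the limits the astrocyte marker sums did not overlap between cell types (20966 to 52776 in astrocyte against 8598 to 15123 in neuron libraries), whereas the neuron marker sums did (307 to 2977 against 1709 to 2969). Oligodendrocyte lineage markers summed to between 1514 and 4028 in the libraries labelled neurons and exceeded the neuron markers in 4 of these 5. The targeted gene, Eed, lay at 38.5 ± 26.2 CPM (SD, n = 5) in astro wt, 6.25 ± 8.63 (SD, n = 5) in astro mosaic, 73.2 ± 12.2 (SD, n = 2) in neuro wt and 29.1 ± 11.3 (SD, n = 3) in neuro mosaic libraries. Within the limits Eed was at 47.2 ± 20.3 (SD, n = 4) in astro wt, 15.6 ± 2.16 (SD, n = 2) in astro mosaic and 64.6 CPM in the neuro wt library. The counts span the whole gene and check its deletion only in part.

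Cdkn1a encodes p21, the Cip/Kip inhibitor that halts the cell cycle downstream of p53 and other signals. The gene (ENSMUSG00000023067.13) spans chr17:29090976-29100727 on the plus strand of GRCm38. RefSeq gives it 2 start sites, and the 250 bases before each are shown because Cdkn1a had the smallest p of the members in the neuron comparison. In the upstream window the capitals mark a p53 response element, found as 2 adjacent half-sites of the p53 consensus with at most 1 mismatch, which ended 31 bases before the start site. Such an element stood in 25 of 32851 windows of that length over all genes (0.0761%) and in 1 of the 9 windows of the members. In the downstream window the capitals mark CG dinucleotides (19 against 2 in the upstream one, with a median of 6 over all windows).
Cdkn1a, upstream start, chr17:29090729-29090978, plus strand: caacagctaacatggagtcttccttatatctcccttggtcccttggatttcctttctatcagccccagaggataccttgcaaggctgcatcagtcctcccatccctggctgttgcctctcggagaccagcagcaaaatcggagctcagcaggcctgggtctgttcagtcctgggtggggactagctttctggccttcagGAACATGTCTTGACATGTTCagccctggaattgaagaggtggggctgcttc
Cdkn1a, downstream start, chr17:29093519-29093768, plus strand: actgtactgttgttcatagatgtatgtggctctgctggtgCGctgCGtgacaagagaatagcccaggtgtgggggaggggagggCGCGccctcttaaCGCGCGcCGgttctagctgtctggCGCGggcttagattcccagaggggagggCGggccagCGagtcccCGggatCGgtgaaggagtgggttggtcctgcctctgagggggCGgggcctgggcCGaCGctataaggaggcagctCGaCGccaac

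Cdkn1a was low or absent in Eed+/+ libraries and abundant in Eed-/- libraries of both cell types, with the exception of the 3 astro mosaic libraries outside the limits. It had 0, 33, 0, 76 and 0 reads in astro wt replicates 1 to 5. The astro mosaic libraries held 0, 242, 0, 0 and 208. The 2 with reads were the 2 within the limits, and 1 of them belonged to each of the 2 runs of consecutive library numbers. In neurons Cdkn1a had 38 and 2 reads in the neuro wt and 289, 405 and 372 in the neuro mosaic libraries, so that every neuro mosaic library lay above both neuro wt libraries. As CPM these were 20.3 and 6.29 against 225, 207 and 234, or 13.3 ± 9.9 (SD, n = 2) against 222 ± 13.7 (SD, n = 3). Within the limits the astrocyte libraries lay at 0, 12.2, 34.8 and 0 (astro wt) against 159.7 and 209.5 CPM (astro mosaic), which is 11.8 ± 16.4 (SD, n = 4) against 185 ± 35.2 (SD, n = 2). The 5 Eed-/- libraries within the limits all lay above all 7 Eed+/+ libraries, as did 0.228% of genes with at least 10 reads. In bulk samples fewer cells with a transcript and less RNA per cell cannot be told apart.

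In astro mosaic replicates 1, 3 and 4 the limit set by a count of 0 was 7.83, 7.44 and 14.2 CPM (3 counts over the gene reads of the library, before TMM scaling), while replicate 2 held 159.7 CPM. These 3 libraries had between 26.1% and 28.8% unique alignment, with microglia marker sums of 8634, 3358 and 0 CPM and erythroid marker sums of 5789, 62.1 and 8024 CPM in replicates 1, 3 and 4. The part of either in the zeros was not tested. Within the limits, microglia markers summed to at most 118 CPM in Eed-/- and at most 389 CPM in Eed+/+ libraries.

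**Figure D1:**
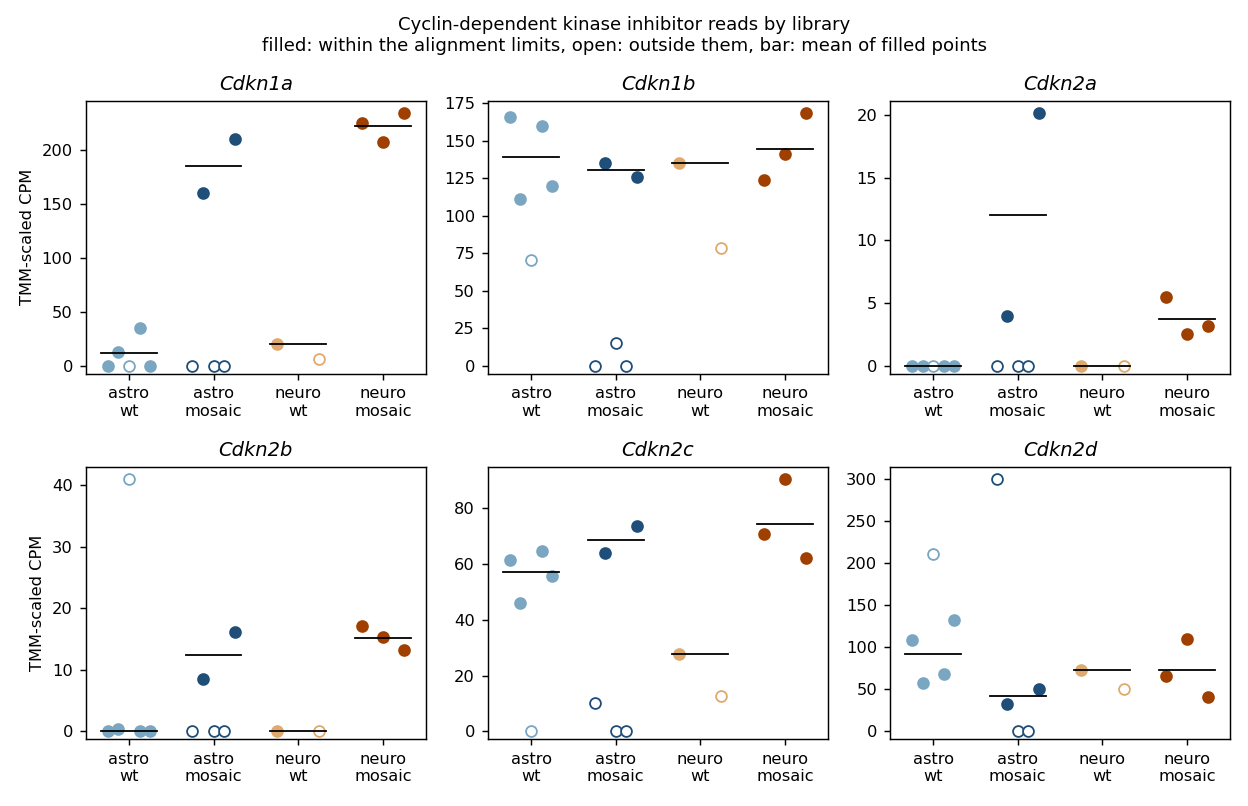
Level of each inhibitor in every labelled library, as TMM-scaled CPM on a linear axis, by group. Filled points are libraries within the alignment limits, open points lie outside them, and bars are means of the filled points. The filled Eed-/- points of Cdkn1a lie between 159.7 and 234 CPM, above all Eed+/+ points, while Cdkn1b overlaps between genotypes.

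In the neuron comparison the fold change of Cdkn1a was 3.83 on the log2 scale (SE 0.76), with an adjusted p of 0.641 by edgeR's quasi-likelihood test. The unadjusted p was 0.000219. That test called 0 of the 5 members tested and 0 of 11862 genes (0.0%) at an adjusted p of 0.05, although 862 genes had an unadjusted p under 0.05, and limma-voom called 0. DESeq2 on the same libraries did call Cdkn1a, with a log2 fold change of 3.88 (SE 0.75) and an adjusted p of 0.000698, among 26 genes in all (0.219%). With neuro wt replicate 2 left out, the log2 fold change was 3.41 (SE 0.75) and edgeR's adjusted p 0.230, while DESeq2 gave an adjusted p of 9.39e-05 (5 genes called, 0.0391%) and limma-voom with sample weights 0.00777 (55 genes, 0.43%). In these fits the neuro wt group was a single library, so that the neuro mosaic libraries alone gave the spread and the lone library was taken to vary like them. Over 16 alternative settings the fold change stayed between 3.37 and 4.99, and the adjusted p ran from 9.39e-05 to 1.00. Without neuro wt replicate 1, the group was replicate 2 alone, the library outside the limits (343640 gene reads, 31.0% unique alignment). The log2 fold change of Cdkn1a was then 4.99 (SE 0.99). How many genes edgeR called depended strongly on which neuro wt library was left, so calls with 1 library in that group are not given as support. An exact permutation test of 3 against 2 libraries cannot go below a two-sided p of 0.2, the value Cdkn1a had.

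In astrocytes Cdkn1a did not pass the filter on low counts over all 10 libraries, and its mean levels of 9.41 ± 15.2 (SD, n = 5) in astro wt and 73.8 ± 103 CPM (SD, n = 5) in astro mosaic libraries did not differ beyond the spread (two-sided exact permutation p = 0.444). Within the limits it passed, with a log2 fold change of 3.94 (SE 1.38) and edgeR's adjusted p of 1.00. The exact permutation p was then 0.133, which is the floor of that design. In the fit over both cell types, with cell type and genotype as terms and n = 15, the log2 fold change was 3.27 (SE 1.10; edgeR's adjusted p 0.251), and 0 of 5 members tested were among the 41 genes called (0.307%, with 0.284% higher and 0.0224% lower). Limma-voom with sample weights called Cdkn1a there (adjusted p 0.0349, 20 genes called, 0.15%). Permuting genotype within each cell type gave a two-sided exact p of 0.0444 over all 15 libraries and 0.0333 within the limits, the latter being the smallest that design allows. On the untransformed CPM scale of these tests, the exact permutation p was 0.0333 with astro mosaic replicate 1, 3 or 4 left out and between 0.0556 and 0.111 with any other library left out. On the log2(CPM + 1) scale it was 0.0825 over all 15 libraries. The genotype effect of Cdkn1a did not differ detectably between astrocytes and neurons (interaction log2 difference -1.06, SE 2.21, edgeR's adjusted p 1.00; 0.52 within the limits).

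Cdkn1b encodes p27, the Cip/Kip inhibitor that accumulates as precursors leave the cell cycle. The gene (ENSMUSG00000003031.14) spans chr6:134920401-134925513 on the plus strand. Unlike Cdkn1a, it was present in all Eed+/+ libraries, at 125 ± 39 CPM (SD, n = 5) in astro wt and 107 ± 39.9 (SD, n = 2) in neuro wt libraries. In the neuro mosaic libraries the level was 144 ± 22.4 (SD, n = 3). Among astro mosaic libraries it lay at 135 and 126 CPM in the 2 within the limits and at 0, 14.8 and 0 in the 3 outside them. The log2 fold change was 0.33 (SE 0.61) in neurons and -1.15 (SE 1.40) in astrocytes, with edgeR's adjusted p of 0.865 and 1.00. Within the limits it was 0.06 (SE 0.60) in neurons and -0.08 (SE 0.35) in astrocytes. A p that misses the threshold does not show that the levels were alike.

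Cdkn2a encodes 2 unrelated proteins from 2 first exons: p16INK4a, which binds CDK4 and CDK6, and p19ARF, which stabilizes p53 by holding MDM2. Counts were made per gene and cannot tell the transcripts apart. Cdkn2a (ENSMUSG00000044303.6) spans chr4:89274471-89294653 and its neighbor Cdkn2b (ENSMUSG00000073802.4) chr4:89306299-89311039, both on the minus strand, with 11645 bases between them. Their start regions are shown because these 2 members were absent or nearly so in the Eed+/+ libraries within the limits. The upstream start of Cdkn2a is that of the p19ARF transcript, the downstream one that of p16INK4a. Capitals mark CG dinucleotides: 40 in the upstream window of Cdkn2a, 7 in the downstream one and 12 in that of Cdkn2b. Fewer CG dinucleotides than these were held by 98.7%, 53.7% and 66.5% of all windows, respectively. The motif GGGCGG, counted on both strands and found in 32.7% of all windows, stood 2 times in the upstream Cdkn2a window and in neither of the other 2.
Cdkn2a, upstream start, chr4:89294620-89294869, minus strand: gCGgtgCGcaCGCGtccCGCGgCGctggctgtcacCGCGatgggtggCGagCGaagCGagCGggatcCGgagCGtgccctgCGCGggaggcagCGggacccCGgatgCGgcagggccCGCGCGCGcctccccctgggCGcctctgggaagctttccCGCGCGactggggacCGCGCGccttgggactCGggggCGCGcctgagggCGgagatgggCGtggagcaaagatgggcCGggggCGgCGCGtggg
Cdkn2a, downstream start, chr4:89282193-89282442, minus strand: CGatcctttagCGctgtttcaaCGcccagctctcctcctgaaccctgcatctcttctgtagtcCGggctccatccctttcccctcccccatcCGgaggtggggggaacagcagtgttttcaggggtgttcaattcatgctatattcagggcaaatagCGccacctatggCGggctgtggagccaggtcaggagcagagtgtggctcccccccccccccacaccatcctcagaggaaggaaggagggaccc
Cdkn2b start, chr4:89311033-89311282, minus strand: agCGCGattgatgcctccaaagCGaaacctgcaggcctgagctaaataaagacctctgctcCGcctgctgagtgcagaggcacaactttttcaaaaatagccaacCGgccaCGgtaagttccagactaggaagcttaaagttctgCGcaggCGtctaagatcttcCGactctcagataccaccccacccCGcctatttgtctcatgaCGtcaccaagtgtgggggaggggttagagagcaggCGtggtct

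Cdkn2a had no read in any of the 7 Eed+/+ libraries, from 343640 to 3178529 gene reads deep. It had 7, 5 and 5 reads in the neuro mosaic libraries and 6 and 20 reads in the 2 astro mosaic libraries within the limits. The other 3 astro mosaic libraries had 0. The levels were low, at 5.45, 2.55 and 3.14 CPM in neurons and 3.96 and 20.1 CPM in astrocytes. Taking 3 counts over the group as the limit of a count of 0, Cdkn2a was at least 21.8-fold higher per gene read in astro mosaic than in astro wt libraries. Most of that came from replicate 5, and without it the bound was 6.77. In neurons the bound was 2.45. Only 4 of 17953 genes with at least 10 reads (0.0223%) had at least 5 reads in each of the 5 Eed-/- libraries within the limits and 0 reads in all 7 Eed+/+ libraries: Cdkn2a, Cnpy1, and the homeobox genes Hoxb6 and Hoxc4. The limit of 5 reads was set after the values of Cdkn2a were seen. Hox genes are classical targets of PRC2.

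Cdkn2a was too low for the filter in every fit over all libraries. The exact permutation p over both cell types was 0.0444 with all 15 libraries and 0.0333 within the limits (two-sided), as for Cdkn1a. Without neuro wt replicate 2 the gene passed the filter of the fit over both cell types and was called by edgeR (log2 fold change 5.73, SE 1.71, adjusted p 0.0466), among 276 genes (1.82%). Within the limits it passed the filter as well and was not called (log2 fold change 7.05, SE 1.71, edgeR's adjusted p 0.931). With no read in Eed+/+ libraries the gene could pass the filter through the Eed-/- libraries alone, so neither fit is given as support. A fitted fold against libraries at 0 depends on the prior count and is no bound.

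Cdkn2b encodes p15INK4b, which answers to TGF-beta signaling. It had 22, 30 and 21 reads in the neuro mosaic libraries and 0 and 0 in neuro wt. In astro mosaic libraries it had 13 and 16 reads in the 2 within the limits and 0 in the others. The astro wt libraries held 0, 1, 22, 0 and 0. The 22 reads stood in replicate 3, a library outside the limits, where they made 41 CPM, above every Eed-/- library (8.58 to 17.1 CPM where detected). Eed had 2 reads (3.72 CPM) in replicate 3, against 28.2 to 75.6 CPM in the astro wt libraries within the limits. In the astro mosaic libraries within the limits Eed lay at 14.1 and 17.2 CPM. Without that library all Eed-/- libraries within the limits lay above all Eed+/+ ones. Per gene read, Cdkn2b was at least 10.5-fold higher in neuro mosaic than in neuro wt libraries. In astrocytes the ratio was 3.18 (exact 95% counting interval 1.77 to 5.75) over all libraries and 93.5 (15.5 to 3820) within the limits, where it rested on 1 read in astro wt. These ratios pool the reads of a group, and their intervals leave out the spread between libraries. The mean level over all astrocyte libraries went the other way, at 4.94 ± 7.27 CPM (SD, n = 5) in astro mosaic and 8.26 ± 18.3 (SD, n = 5) in astro wt.

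The fitted log2 fold change of Cdkn2b in neurons was 7.41 (SE 1.91), with an adjusted p of 0.644 by edgeR and 0.12 by DESeq2. Within the limits, with 1 neuro wt library, it was 7.67 (SE 1.98). In astrocytes within the limits it was 6.13 (SE 1.92; edgeR's adjusted p 1.00). Over both cell types it was 0.59 (SE 1.53; adjusted p 1.00) with all 15 libraries, and 5.34 (adjusted p 0.172) without astro wt replicate 3. Limma-voom with sample weights called it over all 15 (log2 fold change 5.02, SE 0.88, adjusted p 0.00372). Within the limits DESeq2 (adjusted p 0.00126, 44 genes called, 0.305%) and limma-voom (adjusted p 0.0226, 7 genes called, 0.0485%) called it over both cell types, while edgeR did not (log2 fold change 6.38, SE 1.34, adjusted p 0.453). With 1 read in total in the Eed+/+ libraries within the limits, Cdkn2b passed the filter there through the Eed-/- libraries alone, as it did in neurons, so these calls are given as values and not as support. The exact permutation p over both cell types was 0.339 with all libraries and 0.0333 within the limits (two-sided).

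**Figure D2:**
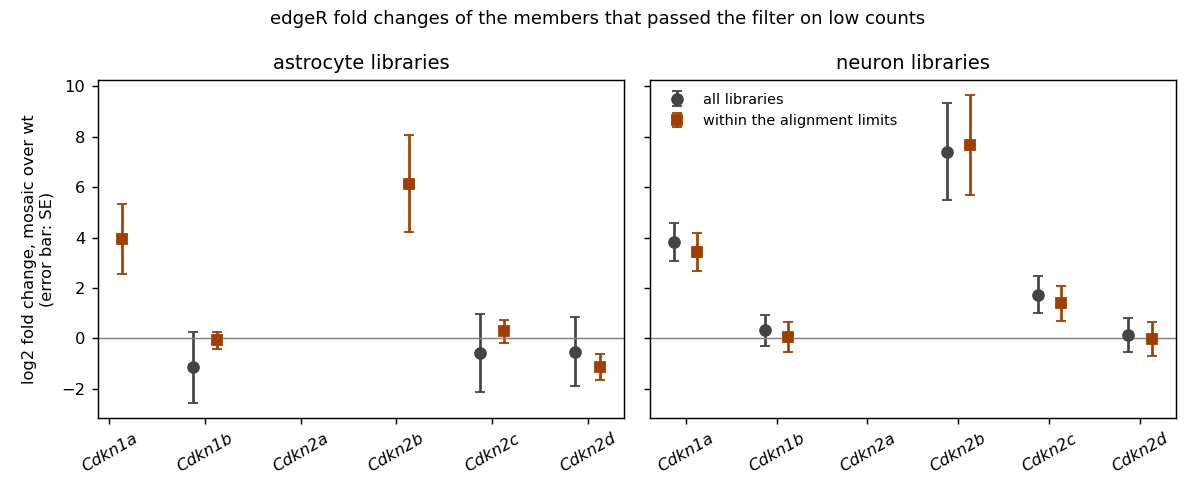
Log2 fold changes of Eed-/- over Eed+/+ libraries with their SE, by edgeR, for the inhibitors that passed the filter on low counts. Circles are fits over all libraries of a cell type and squares fits within the alignment limits. Cdkn1a and Cdkn2b lie above 3 in each of these fits per cell type, Cdkn1b near 0 within the limits, and the Cdkn2b values rest on Eed+/+ groups with 0 or 1 read within the limits, so that their size depends on the prior count.

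Cdkn2c encodes p18INK4c and Cdkn2d p19INK4d, the INK4 inhibitors that neural precursors and young neurons are known to express. Cdkn2c (ENSMUSG00000028551.14) spans chr4:109660876-109667189 and Cdkn2d (ENSMUSG00000096472.2) chr9:21288410-21291407, both on the minus strand. Cdkn2c had 52 and 4 reads in neuro wt and 91, 177 and 99 in neuro mosaic libraries, or 20.2 ± 10.7 (SD, n = 2) against 74.5 ± 14.5 CPM (SD, n = 3), without overlap. Its log2 fold change in neurons was 1.73 (SE 0.74; edgeR's adjusted p 0.670), and 1.40 (SE 0.70) within the limits, with 1 neuro wt library. In astrocytes within the limits the levels overlapped, at 57 ± 8.2 (SD, n = 4) in astro wt and 68.8 ± 6.7 CPM (SD, n = 2) in astro mosaic libraries. Over all astrocyte libraries its log2 fold change was -0.57 (SE 1.54) and within the limits 0.28 (SE 0.45), neither of them called.

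Cdkn2d was not called in either cell type. Within the limits it had 109, 57.8, 67.8 and 132 CPM in astro wt against 33 and 50.4 CPM in astro mosaic libraries and so lower in both of the latter (log2 fold change -1.12, SE 0.53, edgeR's adjusted p 1.00). The exact permutation p was 0.133, the smallest this design allows. Over all 10 astrocyte libraries the groups overlapped, since astro mosaic replicate 1 held the most of any library (299.6 CPM from 175 reads), and the log2 fold change was -0.53 (SE 1.37) with TMM but 0.22 with RLE size factors. In neurons Cdkn2d lay at 61.8 ± 16.1 (SD, n = 2) and 72.4 ± 35.2 CPM (SD, n = 3), with a log2 fold change of 0.13 (SE 0.69; edgeR's adjusted p 0.956).

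Counts of members whose genotype groups did not overlap can be read against all 17953 genes with at least 10 reads. In neurons every Eed-/- library lay above every Eed+/+ library for 4 of the 6 members (Cdkn1a, Cdkn2a, Cdkn2b and Cdkn2c) and for 14.1% of all genes, and the reverse for none and 6.76%. In astrocytes within the limits this held for 3 members (Cdkn1a, Cdkn2a and Cdkn2b) and 5.12% of all genes, and the reverse for 1 member (Cdkn2d) and 6.1%. With both cell types pooled within the limits, so that every Eed-/- library lay above every Eed+/+ library of either cell type, it held for the same 3 members, of 63 genes in all (0.351%). For no member did every Eed-/- library lie below (0.195% of all genes). With all 10 astrocyte libraries no member separated in either direction, while 0.0223% of all genes lay above and 1.13% below. In astrocytes edgeR called 0 of the 3 members tested over all libraries and 0 of 8956 genes (0.0%), of which 108 passed 0.05 before adjustment. There limma-voom called 0 genes and DESeq2 called 1.

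The order of the members by level per length (TMM-scaled CPM per kb of exon, libraries within the limits) differed between genotypes. In astro wt libraries it ran Cdkn2d (58.2 ± 22.1, SD, n = 4), Cdkn1b (30.6 ± 6.13), Cdkn2c (21.2 ± 3.06), Cdkn1a (3.31 ± 4.62), Cdkn2b (0.0667 ± 0.133) and Cdkn2a at 0. Each of the first 3 stood above the next without overlap between libraries, and the last 3 overlapped. The single neuro wt library had the same first 4 (46.5, 29.7, 10.3 and 5.71 in the same order) and no read of the other 2. In neuro mosaic libraries Cdkn1a came first (62.4 ± 3.85, SD, n = 3), ahead of Cdkn2d (46 ± 22.3), Cdkn1b (31.7 ± 4.92), Cdkn2c (27.7 ± 5.38), Cdkn2b (10.9 ± 1.42) and Cdkn2a (3.17 ± 1.31). The first 4 overlapped their neighbors, whereas Cdkn2c stood clear of Cdkn2b and Cdkn2b of Cdkn2a. In astro mosaic libraries Cdkn1a also came first (52 ± 9.91, SD, n = 2), clear of Cdkn1b (28.7 ± 1.46), Cdkn2d (26.5 ± 7.8) and Cdkn2c (25.6 ± 2.5), which overlapped in that order, and Cdkn2a (10.3 ± 9.76) and Cdkn2b (8.88 ± 3.83) followed.

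**Figure D3:**
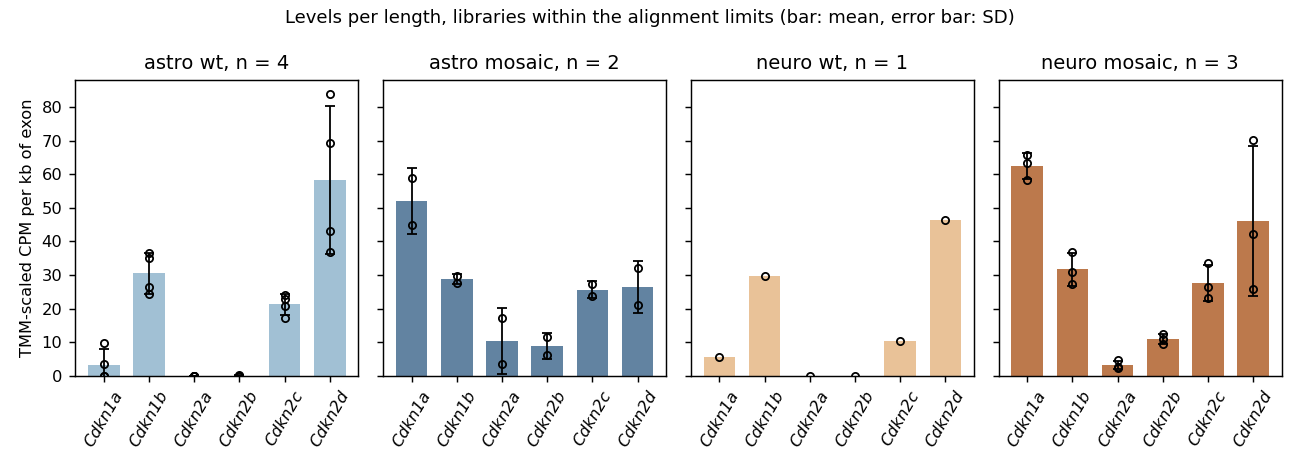
Level of each inhibitor per kb of exon, as TMM-scaled CPM, in the libraries within the alignment limits of the 4 groups. Bars are means from 0, error bars SD, and points libraries. Cdkn2d has the tallest bar in both Eed+/+ groups and Cdkn1a in both Eed-/- groups.

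Between cell types no member was called in either genotype (0 of 5 tested in each; edgeR called 0.00748% of 13367 genes in Eed+/+ and 0.0598% in Eed-/- libraries), nor in the interaction (0.0524% of genes called). At the looser adjusted p of 0.2 that the study's methods use, edgeR still called no member in any comparison. The genes called at 0.2 were 0.0374% between cell types in Eed+/+ (all lower in astrocytes), 0.112% in Eed-/- (0.0823% higher and 0.0299% lower in astrocytes), 0.0973% in the interaction (all positive) and 1.03% for genotype over both cell types (0.898% higher and 0.135% lower). No member had all astrocyte libraries above all neuron libraries, or below, in either genotype, where 3.19% and 8.22% of genes did in Eed+/+ and 0.267% and 11.3% in Eed-/- libraries. Across the Eed+/+ groups within the limits Cdkn2c lay at 46 to 64.6 CPM in astrocytes (n = 4) against 27.8 CPM in the single neuro wt library, which gives no spread. With all libraries it overlapped (45.6 ± 26.4, SD, n = 5, against 20.2 ± 10.7, SD, n = 2; two-sided exact permutation p = 0.286, where the smallest possible is 0.0952). Cdkn1a, Cdkn1b and Cdkn2d overlapped between the Eed+/+ cell types. Across the Eed-/- groups the members overlapped too, with exact permutation p from 0.0714 (Cdkn1a) to 0.857 (Cdkn2a), and within the limits Cdkn1a lay at 185 ± 35.2 (SD, n = 2) in astrocytes and 222 ± 13.7 CPM (SD, n = 3) in neurons. The cell type contrasts share libraries with the genotype comparisons.

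The pathway around the members was followed in 5 lists. In neurons edgeR called none of the tested genes of these lists. CDKs and their cyclins, the kinases that the members hold back, had a positive log2 fold change in 9 of 12, with a median of 0.74 against 0.15 for all genes. The G2 cyclins Ccnb2 (1.68, SE 0.70) and Ccnb1 (1.86, SE 0.82) had the smallest p, both with an adjusted p of 0.67. Retinoblastoma and E2F genes had 6 of 13 positive and a median of -0.08. Rb1 itself, the retinoblastoma gene, had -2.77 (SE 0.75, adjusted p 0.644), and E2f2 1.94 (SE 1.08, adjusted p 0.732). The list of genes that control the inhibitors, such as Polycomb and SCF-Skp2 components, also holds the related genes Cdkn1c and Cdkn3. It had 8 of 12 positive and a median of 0.71, led by Ring1 (2.25, SE 1.07, adjusted p 0.686), a Polycomb complex 1 ligase, and Cdkn3 (1.96, SE 1.18, adjusted p 0.739), a CDK phosphatase. Of p53 and its targets 13 of 16 were positive, with a median of 0.98. Phlda3, an AKT repressor (2.75, SE 0.88, adjusted p 0.644), and Pmaip1, the BH3-only gene for NOXA (3.05, SE 1.28, adjusted p 0.670), had the smallest p. Pmaip1 had 3 reads in neuro wt libraries and passed the filter through the neuro mosaic libraries alone. Proliferation genes had 10 of 12 positive and a median of 0.88, with Cdc20 (1.63, SE 0.77) and Aurka (1.53, SE 0.79) first at adjusted p of 0.686 and 0.707. Summed, the proliferation list came to 1098 to 1386 CPM in neuro mosaic against 813 and 843 CPM in neuro wt libraries, without overlap. The same held for CDKs and cyclins (2787 to 3763 against 2465 and 2483) and for p53 and its targets (1151 to 1366 against 655 and 890). It also held for control of the inhibitors (837 to 997 against 444 and 731). Retinoblastoma and E2F sums overlapped (438 to 561 against 545 and 755). Of single genes 14.1% separated upwards in neurons. Cell type markers differed in the same comparison: neuron markers, those of the labelled cell type, had 8 of 12 positive with a median of 1.38, and the 3 microglia markers tested were all positive with a median of 2.16. Their part in the list values was not tested. Within the limits, with 1 neuro wt library, the medians were 0.62 for CDKs and cyclins (12 of 12 positive), -0.18 for retinoblastoma and E2F (4 of 13), 0.37 for control of the inhibitors (11 of 13), 0.47 for p53 and its targets (12 of 16) and 0.66 for proliferation (12 of 12), against 0.07 for all genes, 0.84 for neuron markers and 1.73 for microglia markers. No gene of the 5 lists was called there, and the 10 genes named kept their sign.

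**Figure D4:**
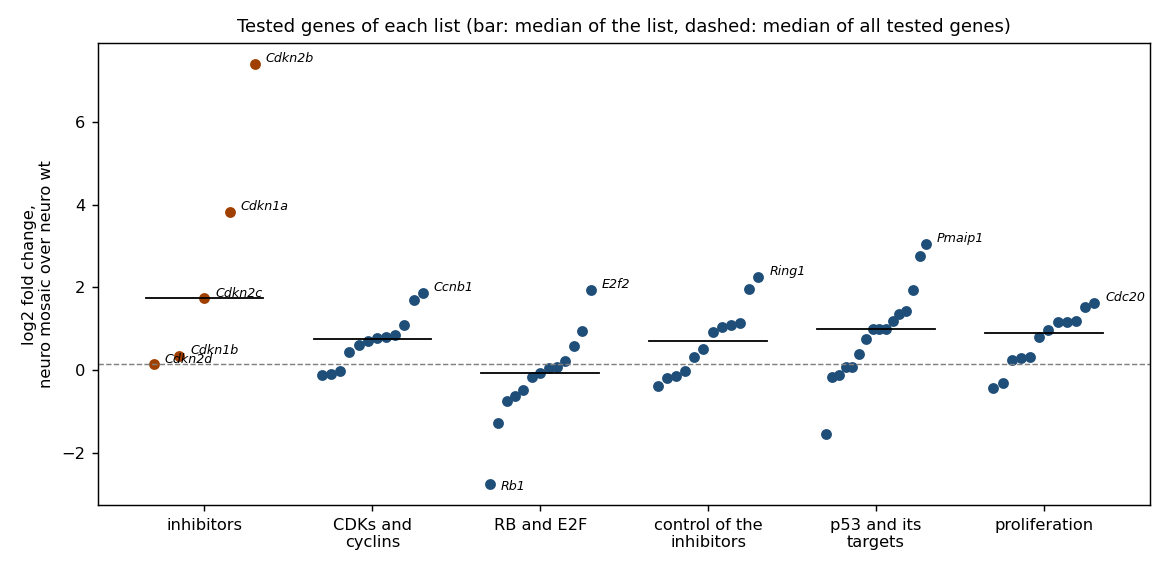
Log2 fold changes of neuro mosaic over neuro wt libraries by edgeR for the tested genes of 6 lists, sorted within each list. Bars are list medians and the dashed line is the median of all 11862 tested genes, 0.15. The 5 inhibitors tested have a median of 1.73, which includes Cdkn2b, a gene with 0 reads in neuro wt libraries. Pmaip1, with 3 reads in neuro wt libraries, leads the p53 targets. Both passed the filter through the neuro mosaic libraries alone. Rb1 lies lowest of all points.

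In astrocytes edgeR again called none of the tested genes of these lists. Over all libraries their medians lay at -0.62 (CDKs and cyclins), -0.18 (retinoblastoma and E2F), -1.10 (control of the inhibitors), -0.04 (p53 and its targets) and -0.38 (proliferation), against -0.54 for all genes. The 2 genes with the smallest p were Ccnd2 (-1.44, SE 1.01) and Ccnd1 (-1.73, SE 1.40) among the CDKs and cyclins, and E2f5 (-1.80, SE 1.55) and Rbl2 (-1.70, SE 1.55) among the retinoblastoma and E2F genes. Among the genes that control the inhibitors they were Foxo1 (-2.34, SE 1.67) and Foxo3 (-1.53, SE 1.62). For p53 targets they were Ccng1, the gene for cyclin G1 (2.69, SE 1.5), and Gadd45a (-2.30, SE 1.60), and for proliferation Mcm3 (-2.87, SE 1.68) and Mcm2 (-2.19, SE 1.61). All 10 had edgeR's adjusted p of 1.00. Within the limits they kept their sign, and again none was called (adjusted p 1.00). There the p53 list had 15 of 16 positive with a median of 0.69, and the proliferation list 0 of 12 with a median of -0.92, against -0.02 for all genes. Summed, the p53 list overlapped between the groups, at 738 and 1497 CPM in astro mosaic against 377 to 907 CPM in astro wt libraries, and only replicate 5 lay above. Of its 16 genes 4 (Ccng1, Pmaip1, Trp53inp1 and Zmat3) had both astro mosaic libraries above all astro wt ones and 1 (Gadd45a) below. Of all genes with at least 10 reads, 5.12% lay above and 6.1% below in this way. Replicate 5 also had the highest neuron marker sum of the astrocyte libraries within the limits, at 2977 against 307 to 2427 CPM in astro wt. Over all astrocyte libraries neuron markers had a median of -1.27 and the 1 microglia marker tested a positive log2 fold change. Within the limits neuron markers had 8 of 12 positive with a median of 0.49 and the 3 microglia markers tested were all negative, and the part of these cells in the list values was not tested. CDKs and cyclins had 4 of 12 positive (-0.49), retinoblastoma and E2F genes 6 of 12 (0.10) and genes that control the inhibitors 3 of 12 (-0.59). Unlike neurons, astro mosaic libraries within the limits did not exceed astro wt ones in the summed proliferation list (129 and 469 against 119 to 1149 CPM).

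Over both cell types the p53 target Pmaip1 came nearest to the threshold of the genes in these lists, with a log2 fold change of 6.02 (SE 1.62) and edgeR's adjusted p of 0.0572. Within the limits it had no read in the 4 astro wt libraries and 3 in the neuro wt library, against 28 in the 2 astro mosaic and 54 in the 3 neuro mosaic libraries. Outside the limits it reached 108 CPM in an astro mosaic library. It was the 1 gene of the 5 lists for which every Eed-/- library within the limits lay above every Eed+/+ library of either cell type (0.351% of all genes). Ccng1 and Ring1 separated in the same direction within each cell type, but not with the cell types pooled. Within a single cell type 14.1% of all genes did so in neurons and 5.12% in astrocytes within the limits. Within the limits the fold change of Pmaip1 was 4.97 (SE 1.34, edgeR's adjusted p 0.939). With no read in astro wt and 3 reads in neuro wt libraries, Pmaip1 passed the filter through the Eed-/- libraries alone. Its fitted fold changes and p-values are therefore given as values and not as support. Trp53 itself was not called in any comparison. In neurons it lay at 74.6 ± 78.8 CPM (SD, n = 2) in neuro wt libraries, with 130 CPM in the one within the limits. The neuro mosaic libraries held 183 ± 43 CPM (SD, n = 3). In astrocytes within the limits Trp53 lay at 62.5 ± 28.1 (SD, n = 4) in astro wt and 90.7 ± 110 (SD, n = 2) in astro mosaic libraries. Over all astrocyte libraries it lay at 64.9 ± 24.9 (SD, n = 5) and 60.8 ± 73.9 (SD, n = 5) in the same order.

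The other listed genes with the smallest p over both cell types were Ccna2 (-2.24, SE 1.34) and Ccnb1 (1.68, SE 1.12), E2f2 (-1.80, SE 1.72) and E2f7 (-1.25, SE 1.24), Cdkn1c (1.91, SE 1.43) and Foxo1 (-1.47, SE 1.27), Ccng1 (1.90, SE 1.08), and Mcm3 (-1.95, SE 1.26) and Plk1 (-2.21, SE 1.45), all with edgeR's adjusted p of 1.00. Cdkn1c encodes p57, a further Cip/Kip inhibitor. The list medians were -0.33 for CDKs and cyclins, -0.49 for retinoblastoma and E2F, -0.63 for control of the inhibitors, 0.23 for p53 and its targets and -0.57 for proliferation, against -0.36 for all genes. Within the limits these medians were -0.10, -0.01, -0.50, 0.48 and -0.35 in the same order, against -0.06 for all genes. There Ccnb1 (-1.78, SE 1.55), Cdkn1c (-3.82, SE 2.47) and E2f7 (0.04, SE 1.22) had the opposite sign. With all 15 libraries erythroid markers had a median of 8.18, with 2 of 4 tested called higher. Microglia markers had 8 of 8 positive with a median of 4.13, and 1 was called higher. Within the limits microglia markers had 0 of 8 positive, and no marker was called. The part of these cells in the list values was not tested.

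Between astrocytes and neurons the machinery that the members act on had its lowest adjusted p among Eed-/- libraries, where no gene of the 5 lists passed the threshold. Ccna2, the S phase cyclin (-4.22, SE 1.55, adjusted p 0.335), Cdk6, an INK4 target (-3.32, SE 1.30, adjusted p 0.376), E2f2 (-5.58, SE 2.08, adjusted p 0.357) and the replication helicase genes Mcm3 (-4.45, SE 1.61, adjusted p 0.327) and Mcm2 (-3.74, SE 1.45, adjusted p 0.371) had negative log2 fold changes, astrocytes over neurons, by edgeR, where the median of all genes was -0.72. Erythroid markers had a median of 10.2 there, with 3 of 4 tested called higher in astrocytes, and microglia markers 8 of 8 positive with a median of 5.16. Within the limits microglia markers had 0 of 8 positive and no marker was called, with a median of -0.17 for all genes. The part of these cells in the values was not tested. E2f7 (-2.69), Mycn (-3.53), Cdkn1c (4.77), Gadd45a (-2.50) and Btg2 (-1.69) completed the pairs with the smallest p, with adjusted p from 0.483 to 0.992. Within the limits Cdkn1c had the opposite sign (-4.11, SE 3.55) and the other 9 genes kept theirs, with no list gene called. Among Eed+/+ libraries these pairs were Ccne2 (-1.76) and Ccnd3 (-0.79), Rb1 (-2.86) and E2f3 (-2.50), Ring1 (2.85) and Id1 (1.87), Pmaip1 (-3.57) and Mdm4 (-2.18), and Bub1 (-1.82) and Mki67 (-1.49), all at an adjusted p of 1.00. In the interaction they were Ccna2 (-4.51) and Cdk6 (-2.58), E2f2 (-5.78) and Rb1 (2.74), Cdkn1c (4.19) and Cbx7 (-4.81), Pmaip1 (4.81) and Sesn2 (-2.49), and Plk1 (-4.21) and Mcm2 (-3.52), again at 1.00. Erythroid markers had a median of 12.4 in the interaction, with 2 of 4 tested called higher, and microglia markers 8 of 8 positive with a median of 1.12. Within the limits microglia markers had 0 of 8 positive there, and no marker was called. The part of these cells in the interaction values was not tested.

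Genes were ranked by how closely their level followed that of a member over the 10 libraries within the limits (Pearson's r of log2(CPM + 1), 10068 protein-coding genes compared). The points share depth, cell type and genotype, so these values describe the libraries. Nearest to Cdkn1a were Igf2bp1 (r = 0.93, and 0.91 over all 15 libraries), which encodes an RNA-binding protein, and Ppp1r13b (0.92 and 0.93), which encodes the p53-binding protein ASPP1. Nearest to Cdkn2b were Hoxc9 (0.96, and 0.74 over all 15) and Hoxb8 (0.95 and 0.73). For Cdkn1b they were Hivep2 (0.89 and 0.33) and Sphk2 (0.88 and 0.21), for Cdkn2c Dpysl4 (0.86 and 0.64) and Gdf10 (0.83 and 0.77), and for Cdkn2d Dcps (0.94 and 0.42) and Pid1 (0.93 and 0.71). Cdkn2a was below the level set for this ranking. Among the members themselves Cdkn2a and Cdkn2b went together most closely (r = 0.91, n = 10), followed by Cdkn1a with Cdkn2b (0.85) and Cdkn2a (0.76), whereas Cdkn1a and Cdkn1b were unrelated (0.04) and Cdkn1a and Cdkn2d ran opposite (-0.66).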

How the data were processed

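RNA was sequenced from green MADM cells sorted from the neocortex. Per the submitters' processing notes, the authors aligned reads with STAR to GRCm38 (mm10). The deposited values are raw counts of reads per gene. The alignment summary lines at the head of each table, which name no gene, were left out of totals and gave between 8.55% and 71.6% of unique reads without a feature. Gene identifiers were matched to GENCODE M21 (53274 of 53379), and promoter sequences came from RefSeq (GRCm38.p6), which matched 6 of 6 members.

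Groups followed the labels. The 1 library whose labels name both cell types was left out, and 0 columns lacked a sample. Genotype was compared in each cell type and over both, cell type within each genotype, and the interaction, with edgeR 4.0.16 (quasi-likelihood test, TMM, filterByExpr, Benjamini-Hochberg adjusted p-values over all tested genes, threshold 0.05) in R 4.3.3. Alternatives were RLE factors, DESeq2 1.42.0, limma 3.58.1 (voom with sample weights), other filters, each library left out, a replicate block, the run of library numbers and alignment limits of 1000000 unique reads and 60%. The comparison over both cell types, the counts of groups without overlap, and list values, DESeq2, limma-voom and no filter within those limits were added after seeing the data. Single genes were compared by two-sided exact permutation of TMM-scaled CPM. Fits were tested on simulated data. Samples were from individual animals per the study's methods. Exact 95% intervals, and the limit of 3 counts set for a count of 0, hold counting error alone. Named genes were the members, Eed, per list and comparison the genes past the threshold or, where none passed, the 2 with the smallest p, and per member with a mean of at least 5 CPM the 2 most alike protein-coding genes with a mean of at least 10 CPM. The members, lists and rules were chosen with earlier results of these data known.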

Additional observations from a re-analysis of the deposited data

Results flagged for a closer look

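In groups of 5 libraries, 11 sets of member levels were checked for a value far from the rest, of which chance marks about 1 in 20, and 4 stood out. Cdkn2a reached 20.1 CPM in astro mosaic replicate 5, with 3.96 CPM in the next library. Cdkn2b reached 41 CPM in astro wt replicate 3, with 0.371 CPM in the next. Cdkn2c was at 0 CPM in that same library, with 46 CPM in the next. Cdkn2d reached 299.6 CPM in astro mosaic replicate 1, with 50.4 CPM in the next. All but the first of these libraries lay outside the alignment limits.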

How the results depend on the processing

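Of 257 recomputed member fold changes 228 kept their direction and their side of the threshold, 9 passed it in addition and 20 changed sign, and the causes were not tested. In neurons edgeR called 0 members, and 1 was called by DESeq2, without a filter on low counts, and by DESeq2 or limma-voom within the alignment limits, while leaving out 1 library gave 0 to 1. Over both cell types 0 became 2 with limma-voom and 1 with DESeq2 or limma-voom within the limits, and 0 to 1 with 1 library left out. Of exact permutation tests past 0.05, the count over both cell types was 2, which became 3 within the limits, 1 on the log2 scale and 0 to 2 with 1 library left out. In astrocytes it was 0 to 1 with 1 library left out, and between cell types in Eed-/- libraries 1 for CPM without TMM. These tests were run for the members and Eed alone, so no share over all genes stands beside these counts. Signs changed for Cdkn2c in astrocytes within the limits (0.28, 0.32 with DESeq2, 0.24 with limma-voom, 0.25 without a filter) and for Cdkn2d in astrocytes with RLE factors (0.22) and DESeq2 (0.22). In neurons they changed for Cdkn1b with limma-voom within the limits (-0.069) and for Cdkn2d within the limits (-0.030, -0.031 with DESeq2, -0.039 with limma-voom, -0.080 without a filter, and -0.33 to 0.45 with 1 library left out). Over both cell types Cdkn2b ran from -0.072 to 5.34 with 1 library left out. The interaction of Cdkn1a changed to 0.52 within the limits (0.58 with DESeq2, 2.22 with limma-voom, 0.50 without a filter, and -2.22 to 0.45 with 1 library left out). Same-numbered libraries had correlations of their deviations from -0.26 to 0.17, not all above 0.1, so the numbers were not taken to pair libraries. Number 2 was its own best match in 2 of the pairings, and shared animals were not tested. With the replicate block Cdkn1a in neurons had 3.98 (adjusted p 0.720), no member was called in any comparison, and the genes called over both cell types went from 41 to 0. Over all genes the count in neurons went from 0 to 26 with DESeq2 and 127 without a filter, and that in astrocytes from 0 to 46 in 1 fit over 15 libraries. RLE factors moved the median log2 fold change in astrocytes from -0.54 to -0.37. The run of library numbers could not be fitted in neurons, which belong to 1 run. Depth limits Cdkn2a most, with 43 reads in all.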

Other observations

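The library whose labels name both cell types held 221456 gene reads, with 17.7% unique alignment and 2397 genes detected. It had 1 read of Cdkn1b and 0 of the other 5 members, where a count of 0 allows up to 13.5 CPM.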
